A study of Mus musculus with 2 samples.

Results

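Pleiotrophin (*Ptn*) and midkine (*Mdk*) and 5 genes of proteins known to bind them, *Ptprs*, *Ptprz1*, *Sdc1*, *Sdc4* and *Ncl*, were followed through 2 single-cell RNA libraries of the mouse colon. The 7 genes form a named list that was chosen with earlier results of these data known, and all 7 stood among the 17809 genes of the wild-type library. In the reporter library, 6 of the 7 were among 15972 genes, and *Ptprz1* was absent from that table. The wild-type library held cells of female C57BL/6 mice and was sorted for EpCAM+ CD45- epithelial cells and EpCAM- CD45- other cells, which were mixed in equal parts before loading. The reporter library held GFP-positive mesenchymal cells of female Pdgfra-H2B-eGFP mice, in which a nuclear green fluorescent protein follows the *Pdgfra* gene. Mice were 8 to 12 weeks old, 3 mice were pooled for each library, neither group was treated, and the cells were not assigned to mice. The wild-type library was made with version 3 of the single-cell kit and the reporter library with version 2. Strain, sort and kit thus differ together between the libraries and cannot be told apart. With 1 library per strain there was no replicate and no test was run. The binomial intervals of shares given here cover counting error over cells only.

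Pleiotrophin and midkine are small secreted proteins that bind heparin and are known for their roles in nerve growth, development and repair. They reach cells through proteoglycans and receptors of their sugar chains. The receptor phosphatase Ptprz1 carries chondroitin sulfate chains, whereas the receptor phosphatase Ptprs binds heparan and chondroitin sulfate. The syndecans Sdc1 and Sdc4 carry heparan sulfate. Nucleolin, the product of *Ncl*, works mainly in the nucleolus in making ribosomes and can also bind these ligands at the cell surface. In the colon, fibroblasts and enteric glia lie next to the crypts, and the epithelium renews from stem cells at the crypt base. Values are mean corrected counts per cell, that is, UMI counts that the authors had adjusted to a common depth. The totals of corrected counts had a median of 8972 per cell in the wild-type library and 3150 in the reporter library, so levels are compared within a library, and values of different genes are not set against each other.

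The cells were clustered without the 7 genes and named from marker lists, with "-like" added to each name. In the wild-type library 1138 cells were CBFs1-like, 560 CBFs2-like and 798 CTFs-like; CBFs and CTFs are the study's names for crypt bottom and crypt top fibroblasts. The glia-like cluster held 79 cells, and 2479 cells were epithelial, of which 595 belonged to no named epithelial type. In the reporter library 2639 cells were CBFs1-like, 851 CBFs2-like and 754 CTFs-like, beside 114 immune-like cells and 51 unnamed cells led by *Reg3b* and *Pigr*, with a median fibroblast marker sum of 0. The CBFs1-like name was weakly supported there. Its 3 clusters exceeded the other cells on the list by log2 0.19 to 0.53, short of the 2-fold asked of other names. They were named because 4 to 6 of 10 markers were 2-fold or more above both the CBFs2-like and the CTFs-like cells. The mean CBFs1 marker sum of CBFs1-like cells was 19.5 where CTFs-like cells had 20.2 (medians 16 and 11). All 10 glia markers were at least 2-fold higher in the glia-like cluster than in the other cells, with a mean sum of 46.3 against 0.0445 in all fibroblasts. The 2 libraries shared 1 cell barcode.

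*Ptn*, the pleiotrophin gene (chr6:36714929-36810220, minus strand, GRCm38), was found in glia-like cells and in a minority of CBFs2-like cells. In glia-like cells its mean was 7.72 corrected counts, and 75 of 79 cells had a value above 0 (94.9%, exact 95% interval 87.5 to 98.6). In CBFs2-like cells of the wild-type library the mean was 0.871, with 78 of 560 cells above 0 (13.9%, 11.2 to 17.1). CBFs1-like cells had a value in 1 of 1138 cells and CTFs-like cells in 4 of 798. The glia-like level was 38.9-fold that of all fibroblasts (log2 5.28, and 6.02 without cells above 10% mitochondrial). This limit leaves out 3043 of the 7495 wild-type cells and 0 of the 4409 reporter cells.

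The reporter library showed the same placement of *Ptn* among fibroblasts. Its CBFs2-like mean was 0.819, with 160 of 851 cells above 0 (18.8%, 16.2 to 21.6). CBFs1-like cells had a value in 6 of 2639 cells and CTFs-like cells in 5 of 754. The log2 ratio of CBFs2-like over CBFs1-like means was 8.37 in the wild-type library, where the CBFs1-like sum was 3 corrected counts, all in 1 cell. The counting interval of the ratio ran from 112.4 to 1608-fold. It takes corrected counts as independent and leaves out the spread between cells, so it is too narrow. That interval does not cover the choice of clusters: the ratio fell to 4.94 with 15 principal components and to 6.93 without cells above 10% mitochondrial. It was 8.49 in the reporter library, from sums of 697 and 6. CTFs-like over CBFs-like (both CBFs types together) gave log2 ratios of -5.53 and -4.92. The first was -4.35 without cells above 10% mitochondrial and -6.88 without cells holding RNA of other types, and the second was -3.93 with finer clusters. *Ptn* was the 1 member of 6 compared that was 2-fold or more higher in CBFs2-like than in CBFs1-like cells in either library, where 6.15% of all genes compared were so in the wild-type library and 3.35% in the reporter library.

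**Figure D1:**
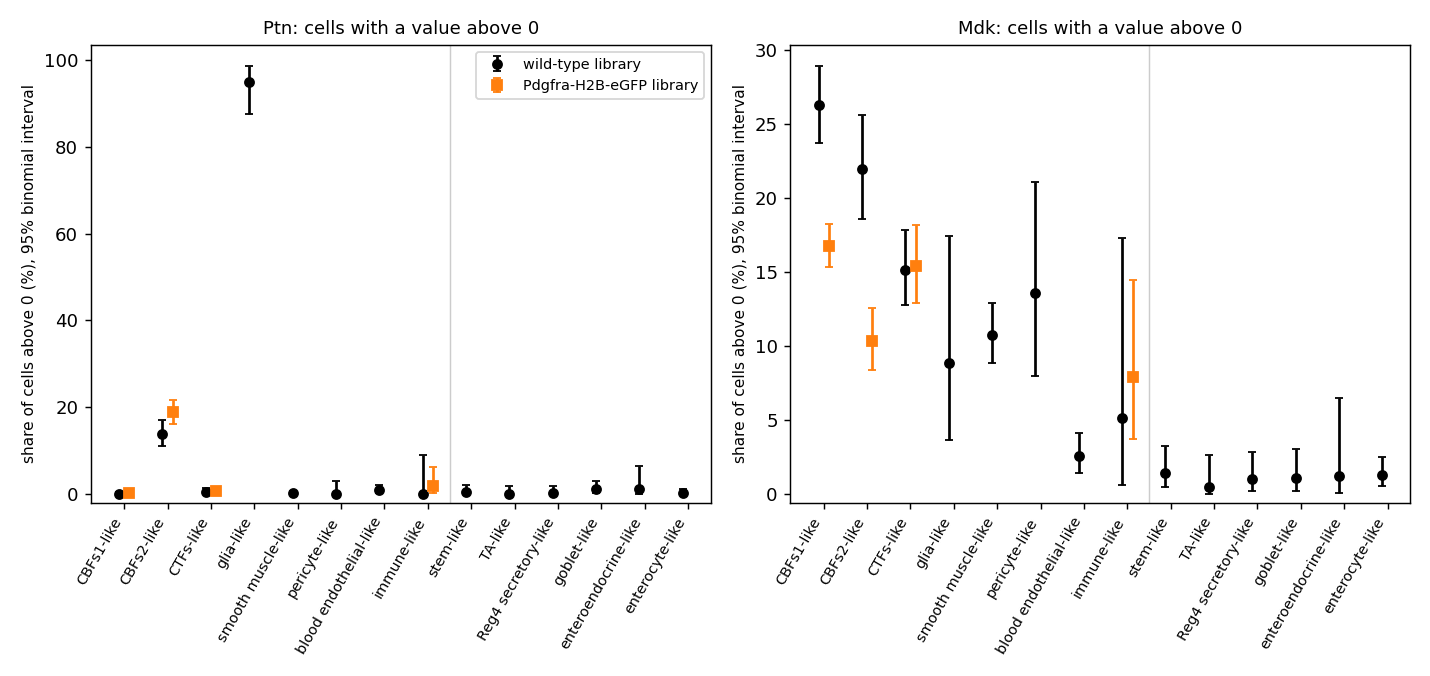
Share of cells with a value above 0 (vertical axis, %) for *Ptn* on the left and *Mdk* on the right, by cell class (horizontal axis), with exact 95% binomial intervals; black circles are the wild-type library and orange squares the reporter library, and the grey line separates stromal from epithelial classes. *Ptn* reached 94.9% of glia-like cells and 13.9% and 18.8% of CBFs2-like cells, while *Mdk* was spread over all 3 fibroblast classes.

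Outside these classes *Ptn* was scarce. In the epithelium 11 of 2479 cells had a value (0.444%, 0.222 to 0.793), with a highest value of 8 in a goblet-like cell. Where these values came from was not tested. TA-like cells were at 0 in all 210 cells, pericyte-like cells in all 118 and immune-like cells in all 39 of the wild-type library. With 3 cells allowed, those zeros permit shares of up to 1.43%, 2.54% and 7.69%. The exact 95% intervals reach higher, to 1.741%, 3.078% and 9.025%. The 9 lower classes with any value, from goblet-like at 0.0346 to CBFs1-like at 0.00264, had overlapping intervals between each class and the next, so no order among them is read. A cluster of 20 unnamed cells, in which 3 of 3 markers of interstitial cells of Cajal were higher than elsewhere, had a mean of 1.65 and a value in 50% of cells (27.2 to 72.8). An unnamed cluster of 139 cells with lymphatic endothelial and fibroblast markers had a mean of 0.324; at a finer clustering 43 lymphatic endothelial-like cells stood apart with a mean of 1.05 and 32.6% of cells above 0 (19.1 to 48.5).

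The *Ptn* of CBFs2-like cells was carried by few cells. In the wild-type library 482 of 560 cells were at 0, 37 had a value of 1 to 2 and 41 had 3 or more (7.32%, 5.31 to 9.80), with a highest value of 65. Those 41 cells held 89.8% of all *Ptn* of the class. Among reporter cells 691 of 851 cells were at 0 and 83 had 3 or more (9.75%, 7.84 to 11.9), with a highest value of 30, and these held 84.5% of it. In contrast, 70 of the 79 glia-like cells had 3 or more.

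**Figure D2:**
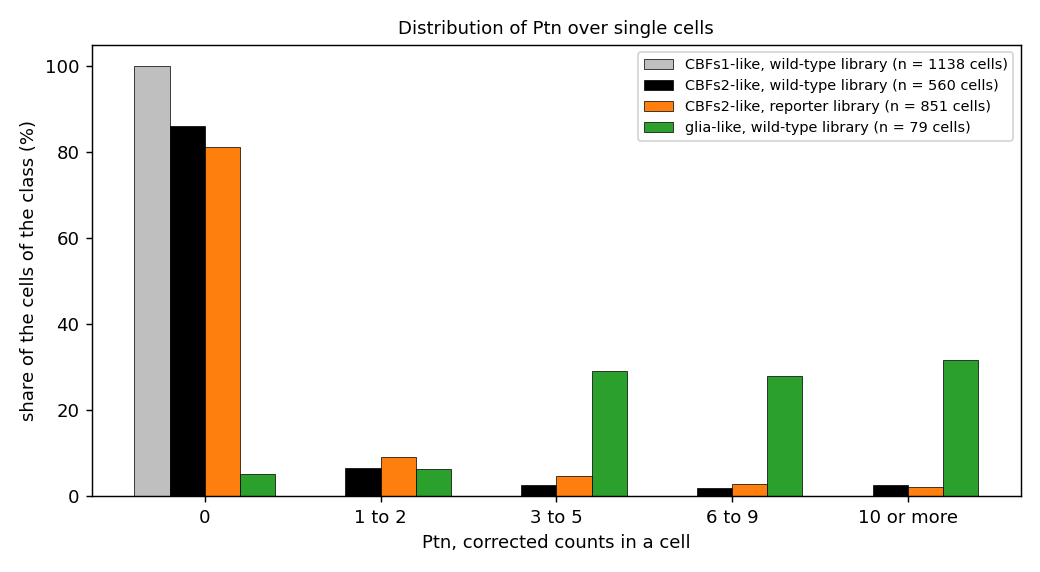
Share of the cells of a class (vertical axis, %) by the corrected count of *Ptn* in the cell (horizontal axis, 5 ranges), for CBFs1-like cells (grey), CBFs2-like cells of the wild-type (black) and reporter (orange) libraries and glia-like cells (green). In CBFs2-like cells 86.1% and 81.2% were at 0 and a small share reached 3 or more, whereas 88.6% of glia-like cells reached 3 or more.

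The *Ptn*-bearing CBFs2-like cells had other genes in common in both libraries. The 20 genes with the largest wild-type ratio, of cells with *Ptn* of 3 or more over cells at 0, were listed among genes found in at least 30% of the former, a choice made after *Ptn* values were seen. Of these, 16 could be compared in the reporter library, and all 16 were 2-fold or more higher there as well, against 7.09% of the 3359 genes compared that passed the same 30% limit in wild-type cells. *Fxyd6*, a regulator of the sodium pump, had means of 6.85 and 0.461 in wild-type cells with and without *Ptn*, and 1.78 and 0.148 in the reporter library. *Fibin* had means of 8.10 and 0.595, and then 1.85 and 0.107. *Serpine2*, a secreted protease inhibitor, had 5.78 and 0.440, and then 1.76 and 0.227.

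Of the same 16, *Kitl*, the ligand of the Kit receptor, had log2 ratios of 3.21 in wild-type and 3.12 in reporter cells. *Kcnn3*, a calcium-activated potassium channel, had 3.45 and 2.80. *Slit2*, a guidance cue, had 3.78 and 1.63. *P2ry1*, a purinergic receptor that is not among the 16 and was looked up after these values were seen, was above 0 in 63.4% of *Ptn*-bearing and 23.7% of *Ptn*-free wild-type cells, and in 37.3% and 6.37% of reporter cells. *Pdgfra*, looked up likewise, had means of 5.49 and 3.09 in wild-type and 1.01 and 0.389 in reporter cells.

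**Figure D3:**
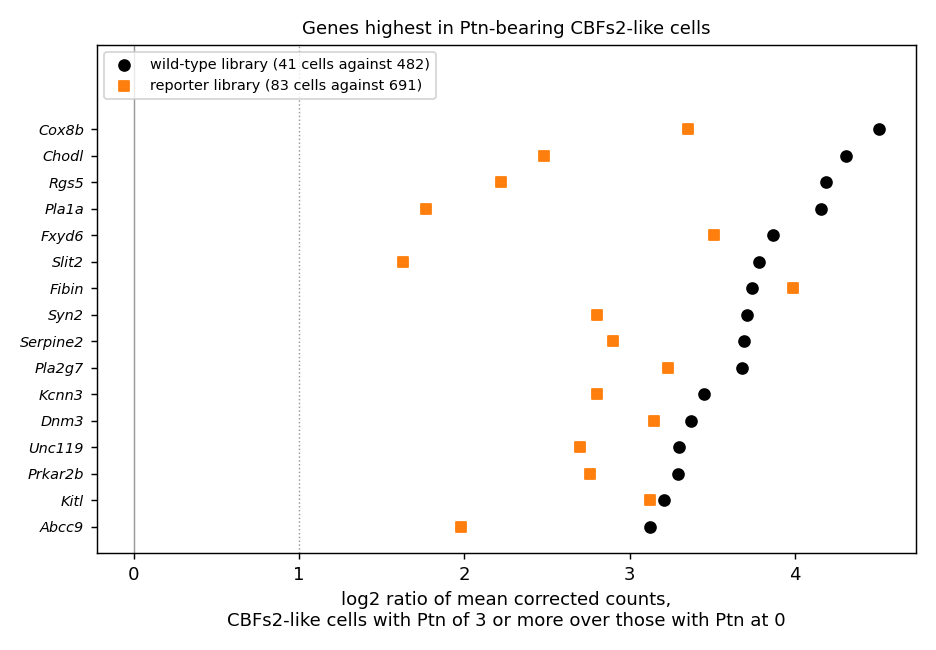
Log2 ratio of mean corrected counts (horizontal axis), CBFs2-like cells with *Ptn* of 3 or more over those with *Ptn* at 0, for the 16 genes (vertical axis) that were listed in the wild-type library and could be compared in the reporter library; black circles are wild-type and orange squares reporter values, and the dotted line marks 2-fold. All 16 reporter values lie beyond the dotted line, from 1.63 for *Slit2* to 3.99 for *Fibin*.

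Marker sums placed these cells at an edge of the CBFs2-like class. The median sum of CBFs2 markers was 22 in *Ptn*-bearing and 60 in *Ptn*-free wild-type cells, and 9 and 17 in the reporter library. *Pi16*, a CBFs2 marker, had means of 1.24 and 5.79, and then 0.301 and 1.73. The median sum of the general fibroblast markers was 322 and 349, and then 97 and 86. Pericyte markers had a median sum of 3 and 0 in wild-type and of 0 and 0 in reporter cells, with means of 6.17 and 0.662, and then 1.05 and 0.248. The pericyte markers *Rgs5* and *Abcc9* were among the 16 genes. Glia markers had mean sums of 0.0732 and 0.0664 and then 0 and 0.0116. Genes detected per cell had medians of 2840 and 2718.5, and then 1402 and 1121; the part of pericyte RNA and of gene number in these differences was not tested. At a finer clustering 67 reporter cells, all of them CBFs2-like in the coarser one, formed an unnamed cluster led by *Chodl*, *Ctxn3*, *Cox8b*, *Rgs5* and *Kit*, with *Ptn* at a mean of 4.19 and in 73.1% of cells (60.9 to 83.2). The finer reporter CBFs2-like cluster still had *Ptn* in 14.1% of its 785 cells, at a mean of 0.530. In the wild-type library the finer CBFs2-like cluster of 504 cells had it in 15.1%, at a mean of 0.960.

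*Mdk*, the midkine gene (chr2:91929805-91932297, minus strand), was spread over the fibroblasts. In the wild-type library the mean was 0.417 in CBFs1-like cells (26.3% above 0, 23.7 to 28.9), 0.388 in CBFs2-like cells (22.0%, 18.6 to 25.6) and 0.209 in CTFs-like cells (15.2%, 12.7 to 17.8). The intervals of both CBFs types overlapped and lay above that of the CTFs-like cells. Reporter means were 0.207 in CBFs1-like, 0.135 in CBFs2-like and 0.186 in CTFs-like cells, and there the CBFs2-like share (10.3%, 8.38 to 12.6) lay below both others. Between CTFs-like and CBFs-like cells its log2 ratio was -0.96 in wild-type and -0.03 in reporter cells, and between CBFs2-like and CBFs1-like cells it was -0.10 and -0.62. None of these passed 2-fold in the main setting, although the last became -1.28 in the finer clustering, where the *Ptn*-rich reporter cluster stood apart. The first, at -0.96, lay near 2-fold. It ran from -0.77 with thinned cells to -1.06 with the members and pathway genes kept for clustering. Among the 6 reporter fibroblast clusters *Mdk* was lowest in the CBFs2-like cells at 0.135 and highest at 0.255 in the CTFs-like cluster led by *Ptprr*, *Nrg1* and *Agt*.

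Smooth muscle-like and pericyte-like cells had lower means of *Mdk* than the wild-type fibroblast classes, 0.142 and 0.161, though the intervals of their shares overlapped that of CTFs-like cells. Glia-like cells had a mean of 0.253, between the CBFs2-like and CTFs-like means, from 7 of 79 cells with a value (8.86%, 3.64 to 17.4). Their log2 ratio over all fibroblasts was -0.44, and it went to -2.59 without cells above 10% mitochondrial and to 0.46 without cells holding RNA of other types, so no direction is read. In the epithelium 46 of 2479 cells had a value (1.86%, 1.36 to 2.47), and 17 of those cells lay in 1 unnamed cluster of 100 cells whose median fibroblast marker sum was 40.5, where that of every other epithelial cluster was 0. The epithelium was 18.1-fold lower than the fibroblasts in *Mdk* and 23.5-fold lower in *Ptn*.

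Within CBFs2-like cells both ligands met more often than the product of their shares. In the wild-type library 38 of 560 cells had both *Ptn* and *Mdk* (6.79%, 4.85 to 9.20), beside a product of 3.06%. Of the reporter cells 37 of 851 cells had both (4.35%, 3.08 to 5.94), beside 1.94%. *Mdk* was above 0 in 56.1% of cells with *Ptn* of 3 or more and in 17.6% of cells with *Ptn* at 0 of the wild-type library, and in 28.9% and 7.38% of the reporter library.

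*Ptprz1*, a receptor phosphatase with chondroitin sulfate chains (chr6:22875502-23052916, plus strand), was found with *Ptn* in the glia-like cells. Its mean there was 2.53, with 60 of 79 cells above 0 (75.9%, 65.0 to 84.9). Fibroblasts had a sum of 3 corrected counts in 2496 cells, which puts the glia-like level at 2106-fold theirs with a counting interval of 710.4 to 10300. This interval also takes corrected counts as independent and leaves out the spread between cells. In the epithelium 1 of 2479 cells had a value. Both *Ptn* and *Ptprz1* were above 0 in 59 of the 79 glia-like cells, 16 had *Ptn* alone, 1 had *Ptprz1* alone and 3 had neither.

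*Ptprz1* was at 0 in 9 of the 14 named classes, and CBFs2-like cells, the other named class with *Ptn* well above the epithelium, had a *Ptprz1* mean of 0.00536. The promoter windows of the pair are shown because both genes had their highest mean in the same cells; each runs from 250 bases before to 50 after the RefSeq start (GRCm38.p6), 5′ to 3′ on the strand of the gene. The *Ptn* window is chr6:36810130-36810429, minus strand, and the *Ptprz1* window is chr6:22875252-22875551, plus strand. Capitals mark any of 4 motifs, none sharing bases with another kind here, that were searched on both strands: the TATA box spelled TATAAA, the GC box spelled GGGCGG, the E-box spelled CACGTG, and a Sox-type core spelled ACAAAG.
Ptn: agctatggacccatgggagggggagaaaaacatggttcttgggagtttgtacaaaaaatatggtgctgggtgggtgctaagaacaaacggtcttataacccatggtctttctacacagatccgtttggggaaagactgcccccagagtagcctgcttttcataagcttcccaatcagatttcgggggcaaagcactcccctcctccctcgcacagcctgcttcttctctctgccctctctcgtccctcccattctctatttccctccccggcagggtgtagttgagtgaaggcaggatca
Ptprz1: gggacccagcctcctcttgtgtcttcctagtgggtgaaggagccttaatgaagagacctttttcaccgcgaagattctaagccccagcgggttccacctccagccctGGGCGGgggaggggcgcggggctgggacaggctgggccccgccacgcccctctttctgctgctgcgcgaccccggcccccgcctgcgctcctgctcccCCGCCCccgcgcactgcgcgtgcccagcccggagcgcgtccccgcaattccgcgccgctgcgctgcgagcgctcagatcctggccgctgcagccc
The *Ptn* window held none of the 4 and the *Ptprz1* window held 2 GC boxes. Of 32851 promoter windows of this length, 35.7% held a GC box, 18.7% a Sox-type core, 13.6% a TATA box and 7.15% an E-box. The *Ptn* window was 52.0% G and C with 6 CG pairs, near the median of all windows (52.7%, 7 pairs), whereas that of *Ptprz1* was 71.7% with 29 pairs.

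*Ptprs*, a receptor phosphatase that binds heparan and chondroitin sulfate (chr17:56412426-56476483, minus strand), was higher in glia-like cells and fibroblasts than in the named epithelial classes other than enteroendocrine-like cells. Its mean was 1.62 in glia-like cells (68.4% above 0, 56.9 to 78.4), 0.709 in CBFs2-like, 0.692 in CBFs1-like and 0.476 in CTFs-like cells. Pericyte-like and smooth muscle-like cells had 0.678 and 0.616. Blood endothelial-like cells had 0.0912, below the TA-like and stem-like means of 0.124 and 0.123. *Sdc4* was at 6.34 in glia-like cells and *Sdc1* was above 0 in 2 of 79. Of the 7 members, 4 were 2-fold or more higher in glia-like cells than in fibroblasts, namely *Ptn*, *Ptprs*, *Ptprz1* and *Sdc4*, against 10.1% of all genes compared, and 1, *Sdc1*, was lower, against 23.7%. The glia-like cells carried some fibroblast RNA: their median fibroblast marker sum was 25 against 223 in the fibroblasts. In the 37 glia-like cells below that median *Ptn* had a mean of 6.70, *Ptprz1* 2.22 and *Ptprs* 1.51, and in the other 42 they had 8.62, 2.81 and 1.71.

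Across the epithelium *Ptprs* was highest in enteroendocrine-like cells, the hormone-secreting cells. Their mean was 0.512, with 32 of 84 cells above 0 (38.1%, 27.7 to 49.3). It was 0.124 in TA-like and 0.123 in stem-like cells, 0.0643 in enterocyte-like, then 0.0346 in goblet-like and 0.0230 in Reg4 secretory-like cells. The enteroendocrine-like level was 7.97-fold that of enterocyte-like cells (log2 2.99), and its interval lay above those of the other 5 named epithelial classes. Goblet-like and Reg4 secretory-like cells together were 2.24-fold below enterocyte-like cells (log2 -1.16), from sums of 17 and 41 corrected counts, and with each cell thinned to 1000 corrected counts this ratio turned to 0.11. Genes detected per cell had a median of 3718.5 in enteroendocrine-like and 2929.5 in enterocyte-like cells. The epithelium as a whole was 7.13-fold lower than the fibroblasts.

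Of 3 other receptor phosphatases, listed as relatives of Ptprs or Ptprz1, *Ptprf* and *Ptprg* were 2-fold or more higher in enteroendocrine-like than in enterocyte-like cells. Of all genes compared 35.1% were so. *Ptprf* had a mean of 2.36 there against 1.06 in enterocyte-like cells and 0.172 in fibroblasts. *Ptprg* had 0.381 against 0.0846, whereas *Ptprd* had 0.310 against 0.454, and 0.721 in stem-like cells. *Ptprf* and *Ptprd* were higher in the epithelium than in the fibroblasts, whereas *Ptprs* and *Ptprg* were lower.

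*Sdc1*, syndecan 1 (chr12:8771323-8793715, plus strand), had its highest wild-type means in epithelial classes. Its mean was 1.99 in enterocyte-like cells (86.5% above 0, 83.6 to 89.1), 1.14 in stem-like, 0.810 in TA-like, 0.619 in enteroendocrine-like, 0.550 in goblet-like and 0.322 in Reg4 secretory-like cells. Immune-like and pericyte-like cells had 0.436 and 0.348, above the Reg4 secretory-like mean. Among the named reporter classes *Sdc1* was highest in immune-like cells at 0.202. Goblet-like and Reg4 secretory-like cells together were 4.59-fold below enterocyte-like cells (log2 -2.20). Among the 3 enterocyte-like clusters *Sdc1* was 2.37, 1.98 and 1.27. The epithelium was 6.42-fold higher than the fibroblasts (log2 2.68, and 2.04 without cells above 10% mitochondrial), and *Sdc1* was the 1 member of 6 compared that was 2-fold or more higher there, against 33.2% of all genes; *Ptn*, *Mdk* and *Ptprs* were lower, against 16.6%.

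In fibroblasts *Sdc1* was lower in CBFs2-like cells than in CBFs1-like cells in both libraries, with means of 0.0875 and 0.275 in wild-type (log2 -1.65) and 0.0259 and 0.145 in reporter cells (log2 -2.49). It was the 1 member of 6 that was 2-fold or more lower, against 4.59% and 5.6% of all genes compared. Wild-type CBFs1-like and CBFs2-like cells carried mean epithelial marker sums of 4.15 and 6.96, where the epithelium had 203.2, and reporter cells of these classes 0.0837 and 0.0599; their part in the difference was not tested. In the reporter library *Sdc1* differed within the classes. The CBFs1-like cluster led by inflammatory genes such as *Cxcl5* and *Cxcl9* had 0.294 and the other 2 CBFs1-like clusters 0.121 and 0.0924. Of the 2 CTFs-like clusters the one led by *Ptprr*, *Nrg1* and *Agt* had 0.272 and the other 0.0270. CTFs-like over CBFs-like cells gave log2 ratios of -1.07 in wild-type and -0.16 in reporter cells; in the first *Sdc1* and *Ptn* were the 2 members of 6 past 2-fold, against 8% of all genes, and in the second *Ptn* alone, against 3.16%; none was 2-fold or more higher, against 5.14% and 4.94%.

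*Sdc4*, syndecan 4 (chr2:164424247-164443887, minus strand), was present in every class and had its highest means in stem-like and glia-like cells, whose shares above 0 overlapped in their intervals. Its mean was 6.47 in stem-like cells, 4.20 in TA-like, 2.86 in enterocyte-like, 2.01 in enteroendocrine-like, 1.92 in Reg4 secretory-like and 1.10 in goblet-like cells. Stem-like cells were 2.27-fold above enterocyte-like cells in *Sdc4* (log2 1.18) and 1.74-fold below them in *Sdc1* (log2 -0.80). Neither of these ratios was recomputed under other settings. The 2 syndecans thus had their highest mean in different epithelial classes, and over the 6 classes their log2 means still had a Pearson correlation of 0.55, with both low in goblet-like and Reg4 secretory-like cells. Nearly all stem-like cells had *Sdc4* (357 of 359), and 258 of them had *Sdc1* too. The share with both was 71.9%, near the product of the 2 shares at 71.7%.

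The promoter windows of the 2 syndecans are shown because the genes differed along the epithelium. The *Sdc1* window is chr12:8771146-8771445, plus strand, and the *Sdc4* window is chr2:164443139-164443438, minus strand; the same 4 motifs are in capitals.
Sdc1: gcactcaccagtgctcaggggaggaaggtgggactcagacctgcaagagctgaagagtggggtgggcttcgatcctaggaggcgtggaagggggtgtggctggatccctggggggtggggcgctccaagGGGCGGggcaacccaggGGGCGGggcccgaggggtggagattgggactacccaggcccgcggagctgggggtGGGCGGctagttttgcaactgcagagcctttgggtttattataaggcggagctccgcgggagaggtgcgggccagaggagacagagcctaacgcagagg
Sdc4: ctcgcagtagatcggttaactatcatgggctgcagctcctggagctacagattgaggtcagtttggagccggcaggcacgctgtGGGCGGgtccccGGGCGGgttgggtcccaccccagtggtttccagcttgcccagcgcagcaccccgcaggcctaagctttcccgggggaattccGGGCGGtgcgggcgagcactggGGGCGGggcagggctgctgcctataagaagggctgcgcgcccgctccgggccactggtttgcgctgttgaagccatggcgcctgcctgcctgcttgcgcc
Both windows were rich in GC boxes, with 3 in *Sdc1* and 4 in *Sdc4*, and neither held another of the 4 motifs.

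In fibroblasts *Sdc4* was higher in CTFs-like than in CBFs-like cells, with means of 2.48 and 1.62 in wild-type (log2 0.62) and 1.51 and 1.09 in reporter cells (log2 0.47). Between CBFs2-like and CBFs1-like cells the log2 ratio was 0.30 in wild-type and -0.22 in reporter cells. The reporter CBFs1-like cells came from 3 clusters with *Sdc4* at 1.41 (led by *Cxcl2*-type activation genes), 1.40 (led by *Cxcl5* and *Cxcl9*) and 0.668, and against the last alone the CBFs2-like ratio was 0.54. *Ptn*-bearing CBFs2-like cells had *Sdc4* at 1.05 where *Ptn*-free cells had 1.90 in the wild-type library, and 0.518 and 1.02 in the reporter library.

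*Ncl*, nucleolin (chr1:86344719-86359400, minus strand), was, within the named epithelial classes, highest in stem-like and lowest in enterocyte-like cells. Its mean was 5.76 in stem-like, 3.77 in TA-like, 2.63 in enteroendocrine-like, 1.87 in Reg4 secretory-like, 1.31 in goblet-like and, lowest of the 6, 0.976 in enterocyte-like cells. Stem-like cells were 5.90-fold and TA-like cells 3.86-fold above enterocyte-like cells. The stem-like ratio was not recomputed under other settings. Among the 3 enterocyte-like clusters the mean ranged from 0.470 to 1.30. The share of cells above 0 was 99.2% (97.6 to 99.8) in stem-like and 47.8% (43.9 to 51.8) in enterocyte-like cells. Enterocyte-like clusters had median mitochondrial shares of 11.8% to 12.9%, those of stem-like and TA-like cells were 9.86% and 7.81%. Without cells above 10% the log2 ratio over enterocyte-like cells went from 1.95 to 1.09 in TA-like cells, from 1.43 to 0.63 in enteroendocrine-like cells and from 0.71 to -0.12 in goblet-like and Reg4 secretory-like cells.

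In stem-like cells, *Sdc4* and *Ncl* were 2 of 4 members compared that were 2-fold or more above enterocyte-like cells, against 29.6% of all genes. In TA-like cells *Ncl* was the 1 of 4 above, against 26.9%, and *Sdc1* the 1 of 4 below, against 12.2%. In goblet-like and Reg4 secretory-like cells none of 4 was above, against 21.1%, and *Sdc1* was the 1 below, against 11.8%; the ratio of *Ptprs* (log2 -1.16) did not pass once the pseudocount of 0.01 used for these counts was added. In enteroendocrine-like cells *Ptprs* and *Ncl* were 2 of 4 above, against 35.1%, and *Sdc1* the 1 below, against 15.8%. Outside the epithelium *Ncl* varied little, from 2.35 in glia-like to 3.99 in pericyte-like cells, and the epithelium and the fibroblasts differed by 1.04-fold. In the reporter library its means were 0.574 in CBFs1-like, 0.483 in CBFs2-like and 0.643 in CTFs-like cells.

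**Figure D4:**
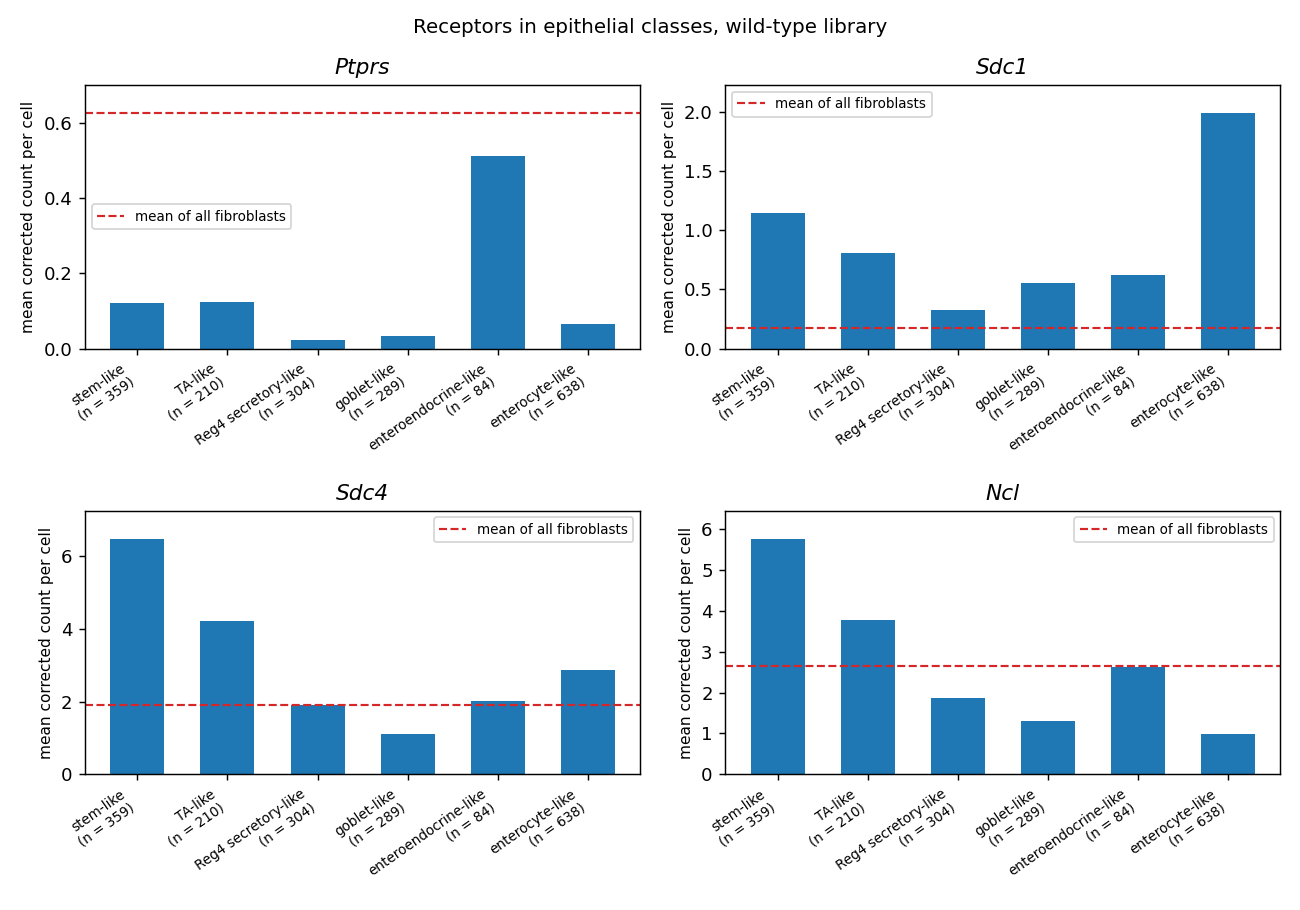
Mean corrected count per cell (vertical axes, each from 0) of *Ptprs*, *Sdc1*, *Sdc4* and *Ncl* in the 6 named epithelial classes of the wild-type library (horizontal axes, with cell numbers); the dashed red line is the mean of all fibroblasts. *Sdc4* and *Ncl* have their highest bar in stem-like cells (6.47 and 5.76), *Sdc1* in enterocyte-like cells (1.99) and *Ptprs* in enteroendocrine-like cells (0.512).

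The genes most like each member over the 14 classes were drawn from 7012 genes, as a description. For *Ptn* they were *Zfhx4* (r = 0.889), *Fez1*, *Mest*, *Apod* and *Lgi4*, all with their highest mean in glia-like cells. For *Mdk* they were *Col5a1* (r = 0.986), *Ndn*, *Reck*, *Angptl2* and *Antxr1*, all highest in CBFs2-like cells. For *Ptprz1*, whose likeness rests on glia-like cells since other classes were near 0, they were *Megf10* (r = 0.994), *Kcna1* and *Sox2*, for *Ptprs* *Sgcb* (r = 0.934), *Ssbp2* and *Crtc3*, and for *Sdc1* *Trpm4* (r = 0.903), *Pdhb* and *Pip5k1b*. For *Ncl* they were *Hnrnpa1* (r = 0.946), *Ptma* and *Hirip3*, and for *Sdc4* *Gm2115* (r = 0.887), *Acot1* and *1810022K09Rik*.

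**Figure D5:**
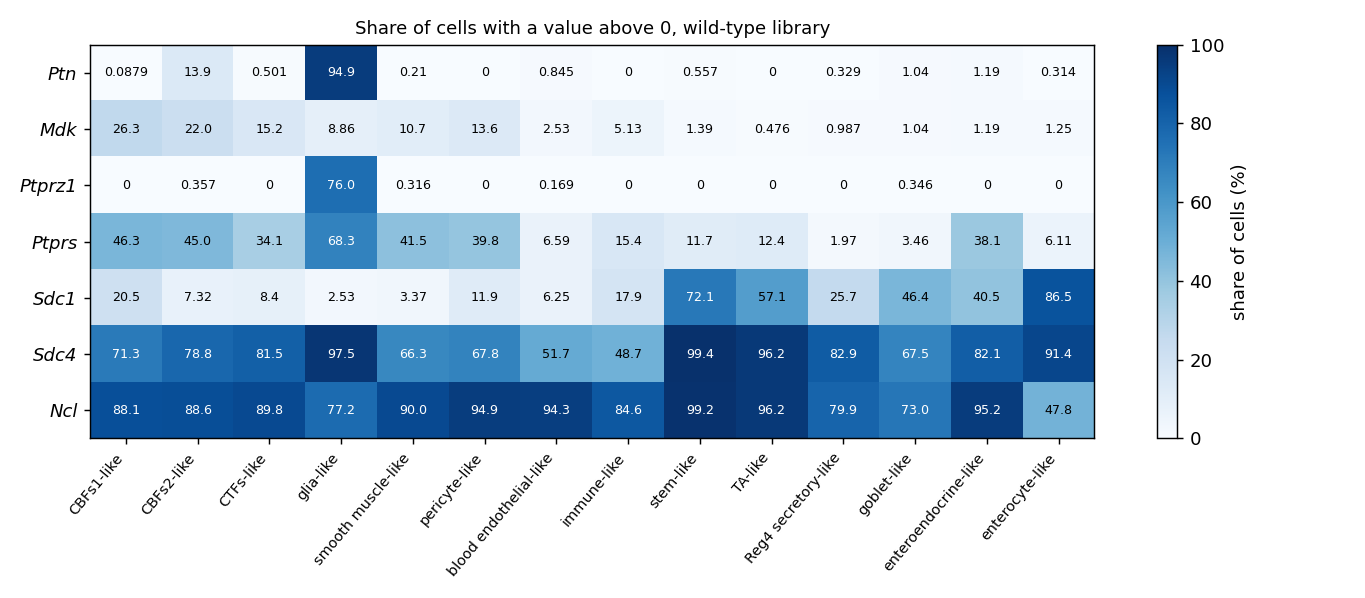
Share of cells with a value above 0 (colour scale and printed numbers, %) for the 7 genes (rows) in the 14 named classes of the wild-type library (columns). *Ptn* and *Ptprz1* have their highest share in glia-like cells (94.9% and 75.9%), *Sdc1* in enterocyte-like cells (86.5%), and *Ncl* its lowest share there (47.8%).

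Other genes of the pathway were read from 5 lists of 46 genes. Of the other receptors and co-receptors, 11 of 13 were in the wild-type table, and 9 of 11 compared were 2-fold or more lower in the epithelium than in the fibroblasts, against 16.6% of all genes compared. The 4 with the highest class mean were *Itgb1* (9.54 in smooth muscle-like cells), *Lrp1* (5.39 in CBFs2-like cells), *Sdc2* (5.18 in CBFs1-like cells) and *Nrp1* (4.22 in blood endothelial-like cells). *Lrp1*, an endocytic receptor of both ligands, had 5.39 in CBFs2-like, 3.33 in CBFs1-like and 1.53 in CTFs-like cells, and 1.14, 0.773 and 0.377 in the reporter library. *Sdc2*, another syndecan, had 4.49 in fibroblasts and 0.164 in the epithelium. *Itga6* and *Ltk* were the 2 that were higher in the epithelium, against 33.2% of all genes. *Sdc3* and *Nrp1* were lower in CBFs2-like than in CBFs1-like cells in both libraries, among 3 of 10 and 2 of 9 compared, against 4.59% and 5.6% of all genes.

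The heparan sulfate list held enzymes that build the chains and the sulfatases *Sulf1* and *Sulf2*. Of its genes, 4 of 11 compared in wild-type and 3 of 11 in reporter cells were lower in CTFs-like than in CBFs-like cells. *Sulf2* was among the lower genes in both libraries, and none was higher in either. Of all genes 8% and 3.16% were lower and 5.14% and 4.94% higher. *Sulf2*, which removes sulfate groups, had 1.67 in CBFs1-like, 1.44 in CBFs2-like and 0.0714 in CTFs-like cells, and 0.535, 0.458 and 0.0822 in the reporter library. *Ext1*, a chain polymerase, had 0.696, 1.02 and 0.350, and then 0.190, 0.283 and 0.0836. *Hs3st1* was highest in enterocyte-like cells at 1.10, and *Hs2st1* in glia-like cells at 1.24. In the epithelium 2 of 11 were higher and 5 lower than in fibroblasts, against 33.2% and 16.6% of all genes.

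Enzymes of chondroitin sulfate synthesis were lower in the epithelium for 9 of 12 compared and higher for none, against 16.6% and 33.2% of all genes. The 4 with the highest class mean were *Chpf* (0.818 in fibroblasts and 0.0722 in the epithelium), *Chst15* (0.265 and 0.0524), *Chst12* (0.343 and 0.0105) and *Dse*, highest in CBFs2-like cells at 0.657 and at 0.00605 in the epithelium. In CTFs-like against CBFs-like cells 1 of 12 was higher and 3 were lower in the wild-type library, and 2 of 11 were lower in the reporter library, beside 5.14% higher and 8% lower, and 3.16% lower, of all genes; *Csgalnact1* and *Xylt1* were lower in both libraries.

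Of 5 intracellular partners, *Fyn*, a kinase downstream of receptor phosphatases, was the 1 of 5 lower in CTFs-like cells in both libraries, against 8% and 3.16% of all genes, with 1.48 in CBFs2-like, 0.761 in CBFs1-like and 0.242 in CTFs-like cells and 0.374, 0.188 and 0.0822 in the reporter library. *Npm1*, a nucleolar partner of nucleolin, had 14.1 in stem-like and 2.97 in enterocyte-like cells. *Sdcbp*, which binds syndecan tails, was highest in enteroendocrine-like cells at 4.90, against 0.962 in enterocyte-like cells. *Ctnnb1* ranged up to 4.38 in blood endothelial-like cells.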

How the data were processed

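Per the labels and the study's methods, reads were aligned to mm10 and UMIs counted with Cell Ranger, and the authors used Seurat 3.1 in R 3.6.2. The deposited tables hold whole-number scores, which are counts corrected by SCTransform, and the deposited natural log values equal ln(1 + score). The tables held 7495 and 4409 cells, of which 7394 and 4407 passed the methods' filters (500 to 7500 genes and under 25% mitochondrial, 500 to 4000 and under 10%) on these values. Genes and lists were chosen with earlier results of these data known. Seurat 5.3.0 clustered each library on the natural log values (3000 variable features, from which the members and the 46 pathway genes were removed, 30 components, resolution 0.45 and 0.3, epithelium again at 0.6). Naming thresholds were set after clusters, but not members' values, were seen. A name needed 3 markers at 2-fold in 10% of cells. The list had to be 2-fold above the other cells and 1.5-fold above any other list. Reporter fibroblast clusters with no name were called CBFs1-like where 3 CBFs1 markers were 2-fold above both other fibroblast types. Ratios are of class means, intervals exact Clopper-Pearson (scipy 1.17.1). A zero share allows 3 cells. Comparisons over all genes needed 20 corrected counts and used a pseudocount of 0.01. Doublets were not removed: Scrublet (scanpy 1.11.5) marked 5 and 4 cells. The comparison code was tested on simulated data. Named genes were the members, the 4 of each list with the highest class mean, and the 5 (ligands) or 3 (receptors) most like each member. Coordinates are from GENCODE M21.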

Additional observations from a re-analysis of the deposited data

Results flagged for a closer look

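*Sdc4* went in opposite directions between CBFs2-like and CBFs1-like cells of the 2 libraries, with a log2 ratio of 0.30 in wild-type and -0.22 in reporter cells. Both are below 2-fold, and the difference between the libraries was not tested. The share of cells above 0 was 78.8% in CBFs2-like and 71.3% in CBFs1-like cells of the wild-type library, and 50.1% and 55.1% in the reporter library. Against the reporter CBFs1-like cluster that was not led by activation or inflammatory genes the ratio was 0.54.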

How the results depend on the processing

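Of 30 planned ratios, 4 of *Ptprz1* had no value because both classes were at or under 3 corrected counts. The other 26 were recomputed under 7 alternatives each and a few chosen after seeing the data, 192 values in all, and 167 of them moved by less than 1.5-fold. Without cells above 10% mitochondrial, log2 *Ptn* became 6.93 (CBFs2-like over CBFs1-like, wild-type), -4.35 (CTFs-like over CBFs-like, wild-type) and 6.02 (glia-like over fibroblasts), *Mdk* -2.59 (glia-like), *Sdc1* 2.04 (epithelium over fibroblasts), and *Ncl* over enterocyte-like cells 1.09 (TA-like), -0.12 (goblet-like and Reg4 secretory-like) and 0.63 (enteroendocrine-like). With each cell thinned to 1000, *Ptn* became at least 5.19 (CBFs2-like, wild-type), 9.49 (reporter), at most -3.08 (CTFs-like, wild-type) and -5.65 (reporter), *Ptprs* 0.11 and *Sdc1* -2.79 (goblet-like and Reg4 secretory-like), and *Sdc4* -1.56 (enteroendocrine-like). With finer clusters *Ptn* became -3.93 (CTFs-like, reporter), *Mdk* -1.28 (CBFs2-like, reporter) and *Ncl* 2.54, 1.43 and 2.04 (TA-like, goblet-like with Reg4 secretory-like, enteroendocrine-like). With 15 components *Ptn* became 4.94 (CBFs2-like, wild-type). Without cells holding RNA of other types *Ptn* became -6.88 (CTFs-like, wild-type) and *Mdk* 0.46 (glia-like). Chosen after seeing the data, *Ptn* (CTFs-like, reporter) became -5.84 without the CBFs1-like clusters led by *Cxcl2* and *Cxcl5* and -5.71 without the CTFs-like cluster led by *Ptprr*. The causes were not tested. Leaving out doublets was not run, since Scrublet marked 0.0667% and 0.0907% of cells, too few for the caller to have worked. No paired analysis was possible because each strain has 1 library. At the thinned depth low genes rest on few counts.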
